A study of Homo sapiens with 6 samples.

Results

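The hypoxia-inducible factor (HIF) subunits and the enzymes that sense oxygen for them were examined by RNA-seq with and without knockdown of PRKCN in MM.1S, a cell line from a human multiple myeloma. The 10 genes were taken by symbol: the α subunits HIF1A, EPAS1 and HIF3A, the β subunits ARNT and ARNT2, the prolyl hydroxylases EGLN1, EGLN2 and EGLN3, the ubiquitin ligase subunit VHL, and the asparaginyl hydroxylase HIF1AN. All 10 are listed among the 21850 genes of the count table. In 7 of them the counts passed the filter on low values and were tested, and 3 (HIF3A, EGLN2 and EGLN3) did not pass.

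The control group, shNT, holds 3 libraries of MM.1S cells of the genotype WT after infection with a scramble hairpin. The knockdown group, shPRKCN, holds 3 libraries of MM.1S cells with the genotype PRKCN knockdown after infection with a PRKCN shRNA, and the series gives the time as day 3. Both groups carry a lentiviral hairpin, and the comparison rests on 1 cell line and 1 knockdown group. Nothing in the labels says whether replicates came from separate infections, so the p-values measure the spread between these libraries, which may be technical.

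A HIF is a pair of an α and a β subunit that binds DNA at the core letters ACGTG or GCGTG. When oxygen is present, the EGLN enzymes hydroxylate prolines of the α subunit, VHL recognizes the hydroxylated form and targets it for degradation by the proteasome, and HIF1AN hydroxylates an asparagine that then no longer binds the coactivators CREBBP and EP300. Control of the α subunit is therefore largely on the protein, which these data do not measure. EGLN1 and EGLN3 are themselves well-known HIF target genes.

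Library totals ran from 35625564 to 37730003 counts. PRKCN is listed as PRKD3, and 41.0% of its shNT level was left in shPRKCN cells. All 7 plasma cell markers were tested, of which SDC1 rose, 5 fell and CD38 had an adjusted p of 0.87 in edgeR, and their summed level was 3318 to 3372 CPM in shNT and 2066 to 2142 CPM in shPRKCN libraries (CPM, counts scaled to the TMM-adjusted library total). No listed marker of myeloid cells exceeded 9 counts in any library and no listed endothelial marker exceeded 4. The myeloid marker FCGR3A, the endothelial markers CDH5 and TEK and the stromal marker COL1A2 are not listed and were not measured here. The T cell list held CD3E, which rose, with a mean of 10.9 ± 0.493 CPM in shNT and of 28.8 ± 2.03 CPM in shPRKCN cells (SD, n = 3), while CD3D stood at a mean of 0.667 counts in shNT and 0 in shPRKCN libraries. The summed level of the T cell list was 10.9 to 12.1 CPM in shNT and 27.7 to 31.5 CPM in shPRKCN libraries, and the part of these markers in the results was not tested. Epithelial and stromal markers did not exceed 40 and 50 counts, and 1 stromal marker fell.

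Of the 7 tested genes, EGLN1, ARNT and ARNT2 fell, EPAS1 and VHL rose, and HIF1A and HIF1AN did not pass the test. Calls are from the quasi-likelihood test of edgeR, with a limit of 0.05 on the p adjusted after Benjamini and Hochberg. Among all 13971 genes tested, 54.2% passed it, so 5 of 7 is close to the share of all genes. None of the 7 also passed the log2 fold limit of 0.58, against 16.7% of all genes (6.15% higher and 10.6% lower). The groups did not overlap in 5 of the 7, against 58.8% of all genes. For the knockdown target the log2 fold change was −1.29.

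The sequences before the annotated starts of EGLN1, EPAS1 and HIF1A are shown because these genes are a gene that fell, one that rose and one that did not pass the test, and each holds a HIF core. They are the 250 bases before the start in RefSeq (GRCh38.p14): chr1:231422288-231422537 on the minus strand for EGLN1, chr2:46297157-46297406 on the plus strand for EPAS1, and chr14:61695263-61695512 on the plus strand for the first of the promoters listed for HIF1A. Capitals mark ACGTG or GCGTG, which were searched on both strands.
EGLN1: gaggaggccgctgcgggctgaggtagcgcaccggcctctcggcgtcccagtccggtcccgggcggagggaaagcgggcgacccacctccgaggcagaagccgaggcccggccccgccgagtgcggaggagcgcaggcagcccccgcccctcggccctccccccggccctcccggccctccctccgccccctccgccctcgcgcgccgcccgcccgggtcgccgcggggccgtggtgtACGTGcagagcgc
EPAS1: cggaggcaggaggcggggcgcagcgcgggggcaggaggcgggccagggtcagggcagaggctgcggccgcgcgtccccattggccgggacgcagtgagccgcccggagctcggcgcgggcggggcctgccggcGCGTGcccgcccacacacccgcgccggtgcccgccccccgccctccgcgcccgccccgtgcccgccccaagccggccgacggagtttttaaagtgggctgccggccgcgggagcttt
HIF1A: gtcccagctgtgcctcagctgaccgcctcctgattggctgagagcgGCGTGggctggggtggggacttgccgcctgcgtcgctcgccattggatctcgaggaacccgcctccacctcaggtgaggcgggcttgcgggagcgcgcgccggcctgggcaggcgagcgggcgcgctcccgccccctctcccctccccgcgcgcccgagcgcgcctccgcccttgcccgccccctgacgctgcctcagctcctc

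The core begins 13 bases before the start of EGLN1, 117 before that of EPAS1 and 204 before that of HIF1A. Of 35116 promoters of the same length, 43.2% hold at least 1 core on either strand, so its presence is common. The promoters of 8 of the 10 genes were in the table, and the other two, VHL and ARNT2, are named only. Of the 12 promoters of those 8 genes, 5 hold a core, and those of ARNT, EGLN3 and HIF1AN hold none. A core in these letters is a description of the sequence and not of binding.

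HIF1A encodes HIF-1α, the broadly expressed α subunit (chromosome 14, 61695513 to 61748258 in GRCh38.p14). Its level was 46.8, 46.8 and 44.6 CPM in shNT libraries and 47.3, 42.9 and 46.1 CPM in shPRKCN libraries. The groups overlapped, and the highest and the lowest values both came from shPRKCN libraries. On the log2 scale the difference was −0.02 (standard error 0.052, 95% interval −0.12 to 0.08, edgeR adjusted p = 0.77). Without shPRKCN 2 its sign turned, to 0.020.

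EPAS1 encodes HIF-2α, which shares the partners and hydroxylases of HIF-1α and is abundant in endothelium (chromosome 2, 46297407 to 46386697). It stood at 14.1, 14.2 and 14.7 CPM in shNT libraries and at 17.2, 17.9 and 17.7 CPM in shPRKCN libraries. Every shPRKCN library lay above every shNT library, and the log2 fold change was 0.30 (standard error 0.080, edgeR adjusted p = 0.0011), or 1.23-fold. It passed the test in all 16 alternatives, between 0.24 and 0.32. The endothelial markers VWF and KDR stood at means of at most 1.33 counts in either group. In RNA of a whole culture, more or fewer cells that express a gene and more or less RNA per cell cannot be told apart.

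HIF3A, the α subunit whose short forms can oppose the others, had 1 count in shNT 1 and 0 in the other 5 libraries. A count of 0 allows up to 3 counts, which is 0.079 to 0.0849 CPM at these depths, for counting error only. No difference was detectable at this depth.

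Among the 3 α subunits, HIF1A held 81.2%, 81.1% and 79.8% of the summed FPKM in shNT libraries and 78.1%, 75.7% and 77.2% in shPRKCN libraries. The share of EPAS1 was 19.3% ± 0.774 in shNT and 23.0% ± 1.21 in shPRKCN cells (SD, n = 3). The groups did not overlap, and the difference of 3.70 percentage points had a 2-sided exact permutation p of 0.1, the smallest that 3 libraries against 3 allow. HIF1A was the more abundant α transcript in every library, and this share does not depend on scaling between libraries.

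ARNT, the constitutive β subunit that pairs with each α subunit and with the aryl hydrocarbon receptor (chromosome 1, 150809713 to 150876599), fell. Its values were 118, 117 and 110 CPM in shNT libraries and 93.6, 103 and 97.0 CPM in shPRKCN libraries. The groups did not overlap, although the nearest libraries differed by less than those within a group. The log2 fold change was −0.23 (standard error 0.042, edgeR adjusted p = 2.3e-06), and it passed the test in all 16 alternatives, between −0.27 and −0.20.

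ARNT2, a β subunit known mainly from neurons and kidney (chromosome 15, 80404382 to 80597933), fell on low counts. It had 108, 137 and 86 counts in shNT libraries and 78, 81 and 74 in shPRKCN libraries, so shNT 3 lay near the knockdown group. Its log2 fold change was −0.55 (standard error 0.204, edgeR adjusted p = 0.019). The call moved with single libraries: the adjusted p was 0.19 without shNT 2 (log2 fold change −0.36) and 0.064 without shPRKCN 3 (−0.50). It passed the fold limit as well without shNT 3 (−0.71, edgeR adjusted p = 0.0046) and without shPRKCN 2 (−0.58, edgeR adjusted p = 0.029). With limma on log2(FPKM + 1) the adjusted p was 0.119, and the log2 fold change −0.14. ARNT held 98.0% ± 0.404 of the summed FPKM of both genes in shNT and 98.4% ± 0.0826 in shPRKCN cells (SD, n = 3, 2-sided exact permutation p = 0.3).

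EGLN1 encodes PHD2, the main prolyl hydroxylase that limits HIF-1α when oxygen is present (chromosome 1, 231363756 to 231422287). It stood at 117, 114 and 117 CPM in shNT libraries and at 80.8, 77.6 and 86.2 CPM in shPRKCN libraries. All shPRKCN libraries lay far below all shNT libraries, and 70.3% of the shNT level was left. EGLN1 fell by 0.51 on the log2 scale (standard error 0.042, 95% interval −0.59 to −0.42, edgeR adjusted p = 5.6e-17), which lay between −0.54 and −0.47 over 16 alternatives, each past the test and none past the fold limit. The long noncoding gene LOC107985360 overlaps 6088 bases of its span. The counts of LOC107985360 were 49 to 61 in the shNT group and 52 to 63 in the shPRKCN group, beside 2886 to 4378 for EGLN1.

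EGLN3, which encodes PHD3, had 3, 5 and 4 counts in shNT libraries and 2, 3 and 1 in shPRKCN libraries. These values are at or near the floor of 3 counts, and no fold is given. EGLN2, which encodes PHD1, had 0, 4 and 1 counts in shNT libraries and 4, 0 and 4 in shPRKCN libraries, with overlap of the groups. In RefSeq the whole of EGLN2 (chromosome 19, 40799191 to 40808434) lies within the read-through gene RAB4B-EGLN2 (40778219 to 40808441), and neither RAB4B-EGLN2 nor RAB4B is listed in the table. Of 113 listed protein-coding genes that are the downstream partner of a RefSeq read-through, 31.9% had a mean of 3 counts or fewer, against 16.9% of 15858 listed protein-coding genes. The part of the overlap in the low count of EGLN2 was not tested, and the count is not read here as its level of expression. The share of EGLN1 among the 3 enzymes, 99.8% ± 0.135 in shNT and 99.7% ± 0.101 in shPRKCN cells (SD, n = 3, 2-sided exact permutation p = 0.8), carries the same limit.

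VHL, the substrate receptor of the ligase that marks hydroxylated α subunits (chromosome 3, 10141778 to 10153667), moved against EGLN1. Its values were 103, 102 and 102 CPM in shNT libraries and 120, 124 and 121 CPM in shPRKCN libraries. The shNT libraries were nearly equal and each lay below all shPRKCN libraries. VHL rose by 0.25 on the log2 scale (with a standard error of 0.040 and an edgeR adjusted p of 1.4e-07), and it passed the test in all 16 alternatives, between 0.24 and 0.27.

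HIF1AN encodes FIH, the asparaginyl hydroxylase (chromosome 10, 100535943 to 100559998). It stood at 81.3, 71.4 and 72.2 CPM in shNT libraries and at 78.3, 76.9 and 80.2 CPM in shPRKCN libraries, where shNT 1 lay above all others. On the log2 scale the difference was 0.07 (standard error 0.046, 95% interval −0.03 to 0.16, edgeR adjusted p = 0.23). Without shNT 1 it was 0.13 with an adjusted p of 0.033, so the call changes with that library.

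**Figure D1:**
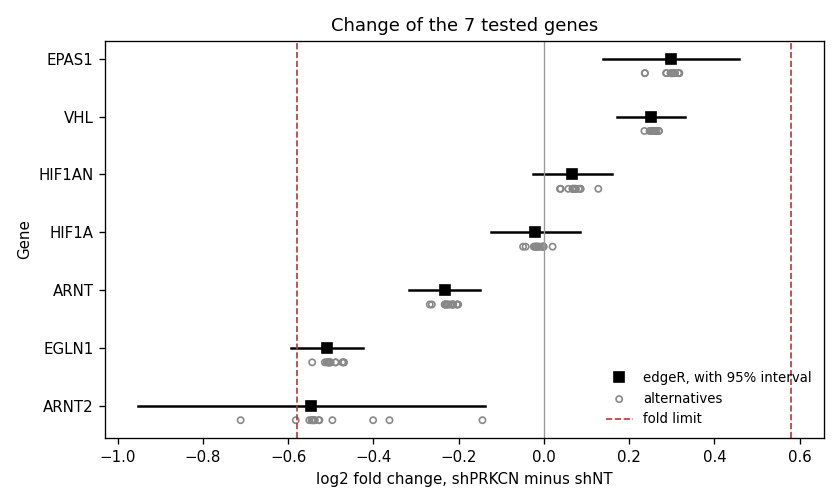
The log2 fold change (shPRKCN minus shNT) of the 7 tested genes, as black squares with the 95% interval, and its value under each alternative as open circles; dashed lines mark the fold limit of 0.58. The circles of ARNT2 spread from −0.71 to −0.14, while those of EGLN1, ARNT, VHL and EPAS1 stay close to the squares and short of the fold limit.

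Levels between genes were compared per length, as FPKM. In shNT cells EGLN1 was the most abundant (26.3 ± 0.287), followed by ARNT (22.8 ± 0.847), VHL (21.7 ± 0.0938), HIF1A (10.9 ± 0.300), HIF1AN (5.72 ± 0.413), EPAS1 (2.61 ± 0.0573) and ARNT2 (0.461 ± 0.109; all FPKM, SD, n = 3). ARNT and VHL were near neighbours, with the lowest ARNT library at 21.9 and the highest VHL library at 21.8 FPKM. In shPRKCN cells VHL came first (26.2 ± 0.256 FPKM), and ARNT (19.7 ± 0.735 FPKM) and EGLN1 (18.7 ± 1.17 FPKM) overlapped (SD, n = 3). The order of HIF1A, HIF1AN, EPAS1 and ARNT2 was the same in both groups. EGLN3, EGLN2 and HIF3A had means of at most 0.0401 FPKM, and their order is not distinguished from counting error.

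The ratio of EGLN1 to VHL, chosen after the values were seen and given with no test, was 1.21, 1.19 and 1.22 in shNT libraries on the FPKM scale. It was 0.719, 0.665 and 0.761 in shPRKCN libraries, so the more abundant of the pair changed from the hydroxylase to the ligase subunit.

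The 3 antisense RNAs named after HIF1A are all listed. HIF1A-AS3 (chromosome 14, 61715558 to 61751097), a long noncoding RNA whose span shares 32701 bases with that of HIF1A, had 33, 23 and 20 counts in shNT libraries and 6, 4 and 1 in shPRKCN libraries. Every shPRKCN library lay below every shNT library, and the log2 fold change was −2.79 (standard error 0.556, edgeR adjusted p = 1.7e-05), a large fall on few counts. On the log2(FPKM + 1) scale the value was −0.95. HIF1A-AS2, over the 3' end of HIF1A, had 5, 10 and 18 counts in shNT libraries and 4, 1 and 2 in shPRKCN libraries and was not tested. HIF1A-AS1 did not exceed 3 counts in any library. Whether the counting used strand is not given, so reads of HIF1A and of its antisense RNAs cannot be told apart, and HIF1A itself had 1596 to 1767 counts in every library.

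**Figure D2:**
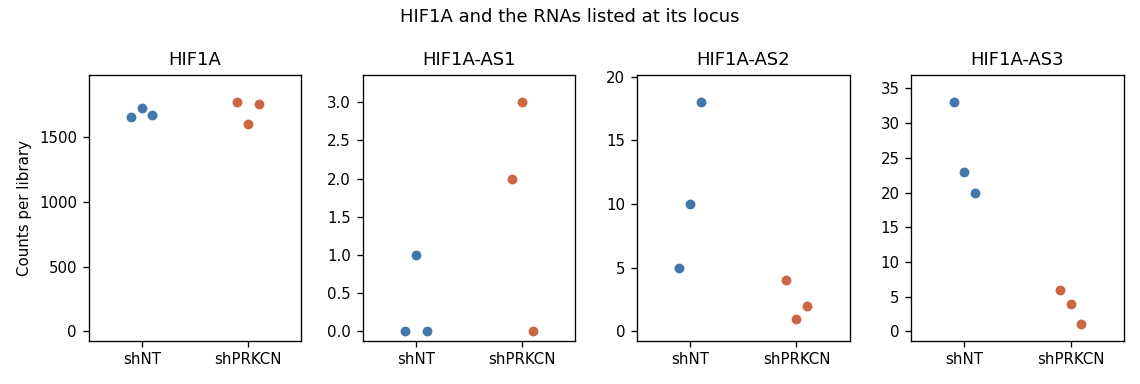
Counts per library of HIF1A and of the 3 RNAs listed at its locus, each on its own linear axis. The shPRKCN points of HIF1A-AS3 (1 to 6 counts) lie below the shNT points (20 to 33 counts), while those of HIF1A overlap.

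The partners of VHL in its ligase (ELOB, ELOC, CUL2 and RBX1) and the factors of neddylation and deneddylation of the cullin showed small differences. Of 7 genes tested, 0 were higher and 2 were lower at an adjusted p under 0.05 in edgeR, against 26.5% and 27.8% of all genes. The 2 were RBX1, the RING subunit (log2 fold change −0.21, standard error 0.049), and ELOC, an adaptor (−0.14, standard error 0.046), whose call was lost without shNT 2. None was past the fold limit.

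Among 12 regulators of the stability of α subunits or hydroxylases, 3 were higher and 3 lower, close to the 54.2% of all genes that passed in either direction. HSP90AA1, a chaperone of HIF-1α, fell by 0.28 on the log2 scale (standard error 0.035), whereas its paralog HSP90AB1 had 0.13 (standard error 0.031). USP20, a deubiquitinase, had 0.50 (standard error 0.060) and OS9, 0.24 (standard error 0.035). SIAH2, a ligase for EGLN3, and SENP1, a SUMO protease, were the other two lower genes (−0.12 and −0.14 on the log2 scale). The call of SIAH2 was lost in 7 of 16 alternatives (without shNT 3, shPRKCN 1 or shPRKCN 3, with library size only and in the 3 limma fits). That of SENP1 was lost in 8 (without shNT 1, shPRKCN 2 or shPRKCN 3, with library size only, in DESeq2 and in the 3 limma fits). Of the 6 tested transactivation cofactors, CREBBP (0.15), EP300 (0.18) and NCOA2 (0.21) rose on the log2 scale. On the same scale CITED2 (−0.29), which competes with HIF-1α for CREBBP and EP300, and CDK8 (−0.27) fell. The shares of all genes were 26.5% higher and 27.8% lower. The call of CDK8 was lost in 4 of 16 alternatives (without shNT 3 or shPRKCN 3 and in both unfiltered limma fits). None of these 18 genes passed the fold limit, against 16.7% of all genes.

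Other oxygen-dependent hydroxylases and demethylases went both ways. Of 29 tested, 12 rose and 11 fell in edgeR, against 26.5% and 27.8% of all genes. The median log2 fold change was −0.02, against 0.0012 over all genes. The fold limit was passed too by 1 higher and 6 lower genes, against 6.15% and 10.6%. Some calls were lost in part of the 16 alternatives: TET1 in 9, RIOX1 in 4, OGFOD1 in 3 and ASPH in 2. The collagen prolyl hydroxylases P4HA2 (log2 fold change −1.39, standard error 0.101) and P4HA1 (−1.33, standard error 0.036) fell most, followed by the histone demethylase KDM3A (−0.74, standard error 0.035). On log2(FPKM + 1) the value of P4HA2 was −0.89. These 3 genes are also known HIF targets and stand in the target list. KDM4B (log2 fold change −0.64), which also passed the fold limit, stands in both lists too. The lower genes of the lists thus partly coincide. TET2, a DNA demethylase, rose by 0.61 (standard error 0.060) on the log2 scale. TET2 was under the fold limit in 4 of 16 alternatives: without shNT 3, without shPRKCN 1 and in both fits on log2(FPKM + 1), the lowest of which gave 0.43.

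The enzymes that make or use 2-oxoglutarate, the cosubstrate of the hydroxylases, or succinate and fumarate, which inhibit them, included 4 higher and 2 lower genes of 13 tested, not above the 54.2% of all genes. OGDH, which consumes 2-oxoglutarate, had 140 ± 3.29 CPM in shNT and 212 ± 8.39 CPM in shPRKCN cells (SD, n = 3). On the log2 scale it rose by 0.59 (standard error 0.038). It fell short of the fold limit without shPRKCN 2, at 0.56. The lower genes were IDH1 (−0.37) and IDH3G (−0.32 on the log2 scale). Among the higher genes, the call of SDHB was lost in 6 of 16 alternatives. Of 5 tested bHLH-PAS factors related to HIF, CLOCK (0.27) and ARNTL2 (0.28) rose and ARNTL (−0.37 on the log2 scale) fell, near the 54.2% of all genes. The call of CLOCK was lost in both unfiltered limma fits. AHR and NPAS1 had adjusted p of 0.25 and 0.064 in edgeR.

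Of the 34 tested HIF target genes other than EGLN1 and EGLN3, 33 fell and 0 rose in edgeR, against 27.8% of all genes that fell. The fold limit was also passed by 27, against 10.6%, and the median log2 fold change was −0.93. Among those with a mean of at least 50 counts ANKRD37 fell most (log2 fold change −2.37, standard error 0.065), followed by BHLHE40, a transcriptional repressor (−1.49, standard error 0.050), and INSIG2, a regulator of sterol synthesis (−1.41, standard error 0.054). EGLN1 fell by less than 29 of these 34 genes and by more than the other 5. The decrease of this list was known when the list was chosen, so it is a description and not independent evidence. For the transcript of HIF1A, which encodes their best known activator, the 95% interval was −0.12 to 0.08 on the log2 scale.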

How the data were processed

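The series holds 6 RNA-seq libraries of MM.1S cells, 3 per group. Per the labels, FastQC, HISAT2 and StringTie and the build GRCh38.p14 were used, without versions; the counting program, annotation and strandedness are not given in the sources used here. The authors deposited raw counts of 21850 genes, and FPKM values (scaled to gene length and library total) that follow from those counts with 1 gene length within 1% for 21850 of 21850 genes. Library totals ran from 35625564 to 37730003 counts.

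The 13971 genes kept by filterByExpr were fitted in R 4.3.3 by the quasi-likelihood method of edgeR 4.0.16 after TMM scaling of the counts, with Benjamini-Hochberg adjustment over all of them. The standard error is the log2 fold change divided by the square root of F. The limits of the study's methods were used, 0.05 on the adjusted p and 0.58 on the size of the log2 fold change. The call of a single gene rests on the adjusted p alone. Genes counted as called over all tested passed both limits. The study itself used DESeq2, which is an alternative here. With these limits DESeq2 called 813 genes higher and 1445 lower here, fewer in each direction than the study reports. The reason was not tested. CPM use TMM-scaled library sizes. Shares within a library were compared with exact permutation tests (scipy 1.17.1). Alternatives were DESeq2 1.42.0, other scalings and filters, a replicate block, omission of each library in turn, and limma 3.58.1 with a pseudocount of 1 or 0.1 on log2 FPKM. The fits were checked on simulated data.

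The genes and lists were chosen with earlier results of these data known. The rule for named genes takes the 10 genes, PRKD3, RNAs named after a member, and up to 3 genes in each direction per list. The latter come from genes past both limits that averaged 50 counts or more, where groups do not overlap. The rule also asked for the genes most alike to each member past both limits, and no member passed both. Genes named outside this rule were chosen after their values were seen. They include LOC107985360, NPAS1 and other genes named for an overlap, a marker list or a small count. They also include HSP90AA1, USP20 and other list genes past the adjusted p limit alone. RefSeq sequences and gene spans are from GRCh38.p14.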

Additional observations from a re-analysis of the deposited data

How the results depend on the processing

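EPAS1, ARNT, EGLN1 and VHL kept their direction and an adjusted p under 0.05 in all 16 alternatives, and none of them passed the fold limit in any. ARNT2 had log2 fold changes of −0.14 with log2(FPKM + 1) and −0.40 with log2(FPKM + 0.1), neither past the test, and −0.71 to −0.36 with single libraries left out. Leaving out single libraries gave −0.049 to 0.020 for HIF1A and 0.038 to 0.13 for HIF1AN. The genes called over all tested were 859 higher and 1475 lower. With log2(FPKM + 1) they were 315 and 648, with its filter 310 and 635, and with log2(FPKM + 0.1) 796 and 1262. With no fold limit they were 3700 and 3877. Of the lists, lower stability regulators numbered 1 with library size only and in each of the 3 limma fits, and lower cofactors 1 with log2(FPKM + 1) and log2(FPKM + 0.1); with single libraries left out the ranges were 1 to 3 for lower stability regulators, 1 to 2 for lower cofactors and 1 to 3 for lower VHL partners. Without a fold limit more genes are counted by definition, and the cause of the other changes was not tested. Of 576 values under alternatives, 549 were counted as unchanged. For this a fold change had to keep its direction and its side of the p limit. A count of calls had to stay within a set ratio of the main count, which allows some calls to change, and a share within the spread. Deviations of same-numbered libraries had correlations of −0.0419, −0.0133 and 0.00381 over 13971 genes, and those of differently numbered libraries −0.0527 to 0.0667. No pairing by number was detected, and a weak one could be missed. With the replicate block 854 genes were called higher and 1463 lower. EGLN1 then had a log2 fold change of −0.51 and ARNT2 of −0.53, and no call of the 7 genes was changed. HIF3A, EGLN2 and EGLN3 were at or near the floor of 3 counts and could not be compared.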

Other observations

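Low counts also occurred at some other genes with a RefSeq read-through, chosen after their values were seen. MOB4, downstream of HSPE1 in HSPE1-MOB4, had 0 to 4 counts per library, and MYCBP, downstream of GJA9 in GJA9-MYCBP, had 0 or 1. CHMP3, downstream of RNF103 in RNF103-CHMP3, had 6 to 13 counts, where RNF103 had 1441 to 2165. Of 126 listed upstream partners, 7.94% had a mean of 3 counts or fewer, against 31.9% of 113 listed downstream partners. Most listed downstream partners thus had a higher mean. Of 154 read-through genes, 115 are not listed. The part of the overlap in any of these counts was not tested, and low expression cannot be told apart from it here.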
